A study of Rattus norvegicus with 42 samples.

Results

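The genes described here encode transcription factors of 11 families best known from embryonic development: Sox, Pax, Tbx, Lhx, Klf, Gata, Fox, Pou, Nkx, Hox and Neurod. Members were the probe sets whose platform annotation gives a single gene symbol that starts with a family name and its member number or letter (b to s for Fox, a to d for Hox), a rule that uses names and no measured value. This gave 193 of 31042 probe sets and 121 of 14217 genes. Fox was represented by 27 genes, Hox by 24, Klf and Sox by 14 each, Pou by 10, Gata, Nkx, Pax and Tbx by 6 each, Lhx by 5 and Neurod by 3. The Hox genes include the antisense transcript Hoxa11-as, which lies over Hoxa11. Genes of the Foxa group fall outside the rule.

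The RNA came from liver, brain and lung of 1 untreated rat, with an age of 9 to 12 weeks in the labels, and was labelled with biotin and hybridised to Affymetrix rat arrays. There were 14 groups of 3 technical replicate arrays: pure liver, pure brain, pure lung and 11 mixtures in which labelled RNA (cRNA) of the same tissues was combined. Mixtures are written as liver/brain/lung percentages: 5/25/70, 70/5/25, 25/70/5, 70/25/5, 45/45/10, 55/20/25, 50/30/20, 55/30/15, 50/40/10, 60/35/5 and 65/34/1. The stated purpose was to test how well tissue proportions can be recovered by statistical deconvolution. Replicate arrays share their RNA, so the p-values reflect array-to-array spread and are silent on differences between animals.

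Transcription factors of these families bind DNA through a domain that gives each family its name or its defining feature: the HMG box (Sox), the paired domain (Pax), the T-box (Tbx), the forkhead (Fox), zinc fingers (Gata and Klf), the homeodomain (Hox, Nkx, Lhx and Pou) or the basic helix-loop-helix domain (Neurod). They set regional and cell identity in the embryo, and many stay active in adult tissue in the cell types they helped to form. Well-studied examples are Nkx2-1 and Foxf1 in lung epithelium and lung mesenchyme, Neurod and Pou3f factors in neurons and their precursors, and Gata4 in the liver and heart.

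Levels are given as log2 values on the authors' scale. Array medians lay between 5.48 and 5.83, and the median SD of the 193 probe sets over the 3 arrays of a group was between 0.07 and 0.15. The pure tissues carried their labels' marker genes: 5 of 5 hepatocyte genes were higher in liver than in both other tissues, 4 of 4 neuron genes in brain and 4 of 4 alveolar type 2 genes in lung. The hepatocyte genes had a summed linear level of 40500 to 44300 in liver, 4910 to 5010 in brain and 177 to 208 in lung. Alb, the albumin gene, was high on the brain arrays (12.21 ± 0.02, against 14.31 ± 0.08 in liver and 5.07 ± 0.25 in lung), while Apoa1, the apolipoprotein A-I gene, was at 4.02 ± 0.06 in brain and 11.83 ± 0.07 in liver, and the part of the Alb signal in the liver and brain comparisons was not tested. Each tissue is a mixture of cell types, and in such bulk RNA fewer cells of a type and less RNA per cell cannot be told apart. A probe set is called dim here when its highest pure tissue mean was below 5.73, the median of all values. Of the 193 probe sets 108 (56%) were dim, and their liver levels lay above their brain levels by a median of 0.44 (log2), against 0.32 over all 11458 dim probe sets on the array. This shift touches each comparison in which a dim gene is higher in liver.

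Enriched factors were most numerous in lung at a 2-fold limit, though not without one, and the order of brain and liver depended on scaling. A probe set was called between 2 tissues at an adjusted p below 0.05 and at least a 2-fold difference, and called enriched in a tissue when it was higher there than in both others. Enriched in lung were 40 of the 193 probe sets (20.7%), against 8.95% of all probe sets. Enriched in brain were 13 (6.74%, against 11.5% of all), and enriched in liver 9 (4.66%, against 7.28% of all). Counted as genes, with the brightest probe set of each, 22 were enriched in lung (18.2%, against 11.5% of all genes), 11 in brain (9.09%, against 11.7%) and 4 in liver (3.31%, against 9.61%). The 13 brain and 9 liver probe sets became 13 and 19 with arrays centred on their medians and 18 and 32 with the 5th percentile subtracted, where lung had 36 and 43. With no fold limit liver had 65, lung 62 and brain 27. By gene, brain and liver had 11 and 10 with centring and 15 each with the 5th percentile subtracted. These shares describe a list that was not drawn at random and carry no test.

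Pair by pair, 52 probe sets (26.9%) were higher in lung than in brain, against 15.9% of all, and 19 (9.84%) higher in brain than in lung, against 15.0% of all. Against liver, 48 (24.9%) were higher in lung, against 17.2% of all, and 23 (11.9%) higher in brain, against 18.9% of all. Liver was higher than brain for 20 (10.4%, against 14.6% of all) and higher than lung for 19 (9.84%, against 10.8% of all). No pair was called for 101 probe sets (52.3%, against 51.4% of all), and 83 of those were dim. Comparisons with liver depended on how the arrays were scaled. The hybridisation control bioB had a level of 8.48 in pure liver, above 7.62 in pure brain and 7.55 in pure lung. The cause of this gap was not tested. Liver was the higher tissue in 46.5% of the liver against brain calls and 28.4% of the liver against lung calls. These shares became 67.2% and 45.3% with arrays centred on their medians, 8.93% and 6.02% with a curve through the hybridisation controls, and 63.5% and 45.8% with the 5th percentile subtracted.

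Several families divided by tissue. Between brain and lung, 31 of the 121 genes were higher in lung (20.8% of all genes were) and 17 higher in brain (15.5% of all genes were). Higher in lung, never in brain, were 5 of 27 Fox, 5 of 24 Hox, 4 of 6 Gata and 4 of 6 Tbx genes. For Fox and Hox these shares lay near the 20.8% of all genes. Higher in brain, never in lung, were 3 of 3 Neurod, 3 of 5 Lhx, 3 of 10 Pou and 1 of 6 Pax genes. For Pax this lay near the 15.5% of all genes. Klf went mainly to lung, with 7 genes against 1, and Sox to both, with 5 genes higher in lung and 4 in brain. Of the Nkx genes 1 was higher in lung and 2 in brain. These family counts were the same as deposited, with arrays centred on their medians, with quantile normalization repeated and with the curve through the hybridisation controls. With the 5th percentile subtracted the totals became 35 and 21, Sox had 6 genes each way, Gata 5 and Hox 6 in lung, Lhx 4 in brain, and Pou 4 in brain and 1 in lung.

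**Figure D1:**
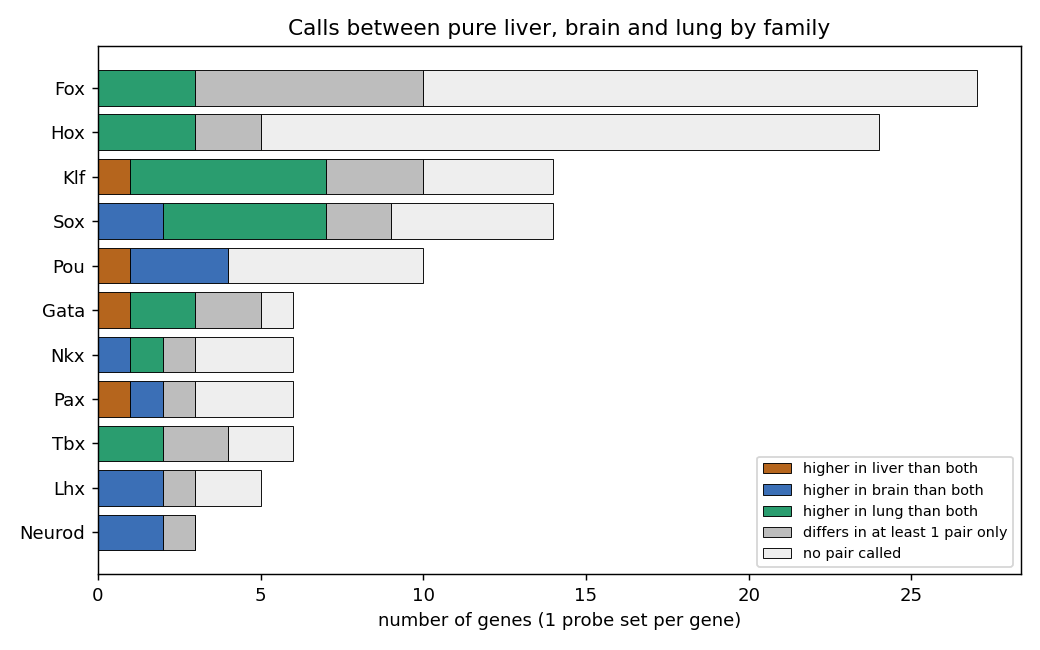
Number of genes in each of the 11 families (horizontal axis, 1 probe set per gene). Colour marks the tissue in which a gene was called higher than in both others. Grey marks other genes with at least 1 pair called, and the palest shade genes with no pair called. Lung fills most of the coloured part of Klf, Sox, Hox, Fox and Tbx, and brain that of Neurod, Lhx and Pou.

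Brain was marked by the proneural Neurod factors, which drive and maintain neuronal differentiation. Neurod1 measured 10.66, 10.86 and 10.77 on the brain arrays, 4.39, 4.22 and 4.52 on the liver arrays and 3.25, 3.47 and 3.06 on the lung arrays. The brain arrays stood far apart from the rest, and the brain mean of 10.76 ± 0.10 (SD, n = 3) was 83.5-fold above liver (log2 difference 6.38, SE 0.08, adjusted p = 1.14e-37, limma), the widest gap of any gene in these families. Neurod6, found in glutamatergic neurons of the forebrain, measured 8.52, 8.72 and 8.67 in brain and no more than 5.26 on any liver or lung array, an 11.7-fold difference (adjusted p = 2.67e-21). Neurod2 was higher in brain than in lung by 2.16-fold (6.41 ± 0.15 against 5.29 ± 0.01, adjusted p = 1.27e-11), but its 1.49-fold difference from liver fell short of the size limit. Genes typical of cerebellar granule cells, in which Neurod1 is prominent in the adult, were also high in brain: Gabra6 and Cbln1 were both enriched there, and their summed linear level was 2290 to 2320 on the brain arrays and 15.1 to 22.5 on the liver and lung arrays. Their part in the Neurod1 level was not tested.

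Neurod proteins bind a 6-base E-box, CANNTG, and favour the form CAGATG. Because the Neurod genes were called in the same direction between brain and lung, their RefSeq promoters (GRCr8 assembly, 250 bases before to 50 bases after the start, 5′ to 3′ along the gene) are printed with each E-box in capitals.
Neurod1, chr3:84770405-84770704, minus strand: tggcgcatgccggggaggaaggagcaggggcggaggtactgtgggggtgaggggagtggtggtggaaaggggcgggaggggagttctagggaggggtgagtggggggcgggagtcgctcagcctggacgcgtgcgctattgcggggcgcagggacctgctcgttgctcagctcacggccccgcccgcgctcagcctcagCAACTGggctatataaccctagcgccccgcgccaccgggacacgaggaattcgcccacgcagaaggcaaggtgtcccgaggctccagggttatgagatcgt
Neurod2, chr10:83824228-83824527, minus strand: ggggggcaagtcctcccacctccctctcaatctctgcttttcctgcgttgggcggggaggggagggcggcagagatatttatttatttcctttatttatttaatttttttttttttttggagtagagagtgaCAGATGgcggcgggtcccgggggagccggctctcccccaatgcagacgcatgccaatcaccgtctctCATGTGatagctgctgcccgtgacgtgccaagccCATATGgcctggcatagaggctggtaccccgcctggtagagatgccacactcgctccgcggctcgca
Neurod6, chr4:86180106-86180405, minus strand: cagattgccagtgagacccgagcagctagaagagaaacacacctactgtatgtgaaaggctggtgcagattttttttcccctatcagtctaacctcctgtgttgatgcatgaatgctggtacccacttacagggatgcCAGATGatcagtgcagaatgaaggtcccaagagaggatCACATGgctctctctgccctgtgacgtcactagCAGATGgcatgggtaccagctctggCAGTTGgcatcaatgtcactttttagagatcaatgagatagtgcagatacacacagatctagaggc
Neurod1 held 1 E-box, Neurod2 held 3 and Neurod6 held 4. CANNTG reads the same on both strands and was present in 71.6% of 27457 rat promoters of this length, and 5.48% held at least 4. CAGATG, searched on both strands and always also an E-box, was present 2 times in Neurod6, 1 time in Neurod2 and not in this window of Neurod1. It occurred in 16.3% of all promoters, and at least 2 copies in 1.69%. CpG pairs numbered 25, 16 and 2 in Neurod1, Neurod2 and Neurod6, against a median of 7 over all promoters. The motif counts describe these letters only. Promoters were matched for 79 of the 121 genes (65.3%), which is too few for a comparison over the families.

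Other brain-enriched genes are known from neural progenitors and glia. Pax6, which patterns forebrain and eye, measured 7.87, 7.85 and 7.85 in brain and between 2.96 and 3.44 on the liver and lung arrays, a 24.3-fold difference over liver (adjusted p = 2.7e-30). Pou3f3, a POU factor of cortical neurons, measured 8.0, 8.02 and 8.14 in brain, 3.94, 3.44 and 3.47 in liver and 3.29, 3.47 and 3.52 in lung, a 21.7-fold difference (adjusted p = 3.52e-31). Pou3f1, a factor of myelinating and cortical cells, was 6.16-fold higher in brain (5.82 ± 0.08 against 3.19 ± 0.46 in liver). In all these the brain arrays lay apart from the other tissues. Nkx2-2, needed for the oligodendrocyte lineage, reached 5.85 ± 0.05 in brain and 3.55 ± 0.22 in liver, 4.91-fold apart. Sox10, a factor of oligodendrocytes, reached 6.98 ± 0.20 in brain, 5.37 ± 0.19 in liver and 4.48 ± 0.55 in lung, where its 3 arrays (3.86, 4.65 and 4.93) spread most widely.

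Sox2, which maintains neural stem cells and also marks airway epithelium, was present in brain and lung. Its brightest probe set measured 8.99, 8.70 and 8.88 in brain, 7.04, 7.15 and 7.11 in lung and 3.65, 3.85 and 4.05 in liver. The order brain, lung, liver held on every array, with brain 3.38-fold above lung (adjusted p = 3.36e-19) and lung 9.50-fold above liver (adjusted p = 5.25e-27). A second probe set gave the same order with brain 3.05-fold above lung, another gave brain 2.30-fold above lung with lung and liver at 6.21 and 6.17, and the last was dim in every tissue.

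The LIM-homeodomain genes Lhx2 and Lhx9, which act in forebrain patterning, were both enriched in brain, with a dim signal for Lhx9 (4.80 ± 0.06 in brain, 3.22 ± 0.11 in liver). Lhx2 was also high in liver, where it is known from stellate cells: it measured 8.16, 8.43 and 8.38 in brain, 6.81, 6.84 and 7.05 in liver and 3.29, 3.48 and 3.33 in lung. Brain exceeded liver by 2.68-fold, and liver exceeded lung by 11.6-fold (adjusted p = 2.85e-29). Lhx1 was similar in brain and liver (5.53 ± 0.40 and 5.49 ± 0.21, adjusted p = 0.751, log2 difference 0.04, SE 0.13) and lower in lung (4.05 ± 0.04). Pou6f1, a POU factor of the nervous system, completed the brain set at 2.26-fold over lung (7.93 ± 0.08 against 6.75 ± 0.04). Of the 13 measured genes in a list for neural progenitors and glia, 6 were enriched in brain and 1 in liver, and of the 14 in a list for neurons 5 were enriched in brain and 2 in lung, where over all genes 11.7% were enriched in brain, 9.61% in liver and 11.5% in lung. The liver gene was Pou3f2, and the lung genes were Foxp1 and Sox4. Factors of the pituitary gland were dim, as Pou1f1, which specifies hormone-producing cells, had means of 3.71 in liver, 3.16 in brain and 3.23 in lung.

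**Figure D2:**
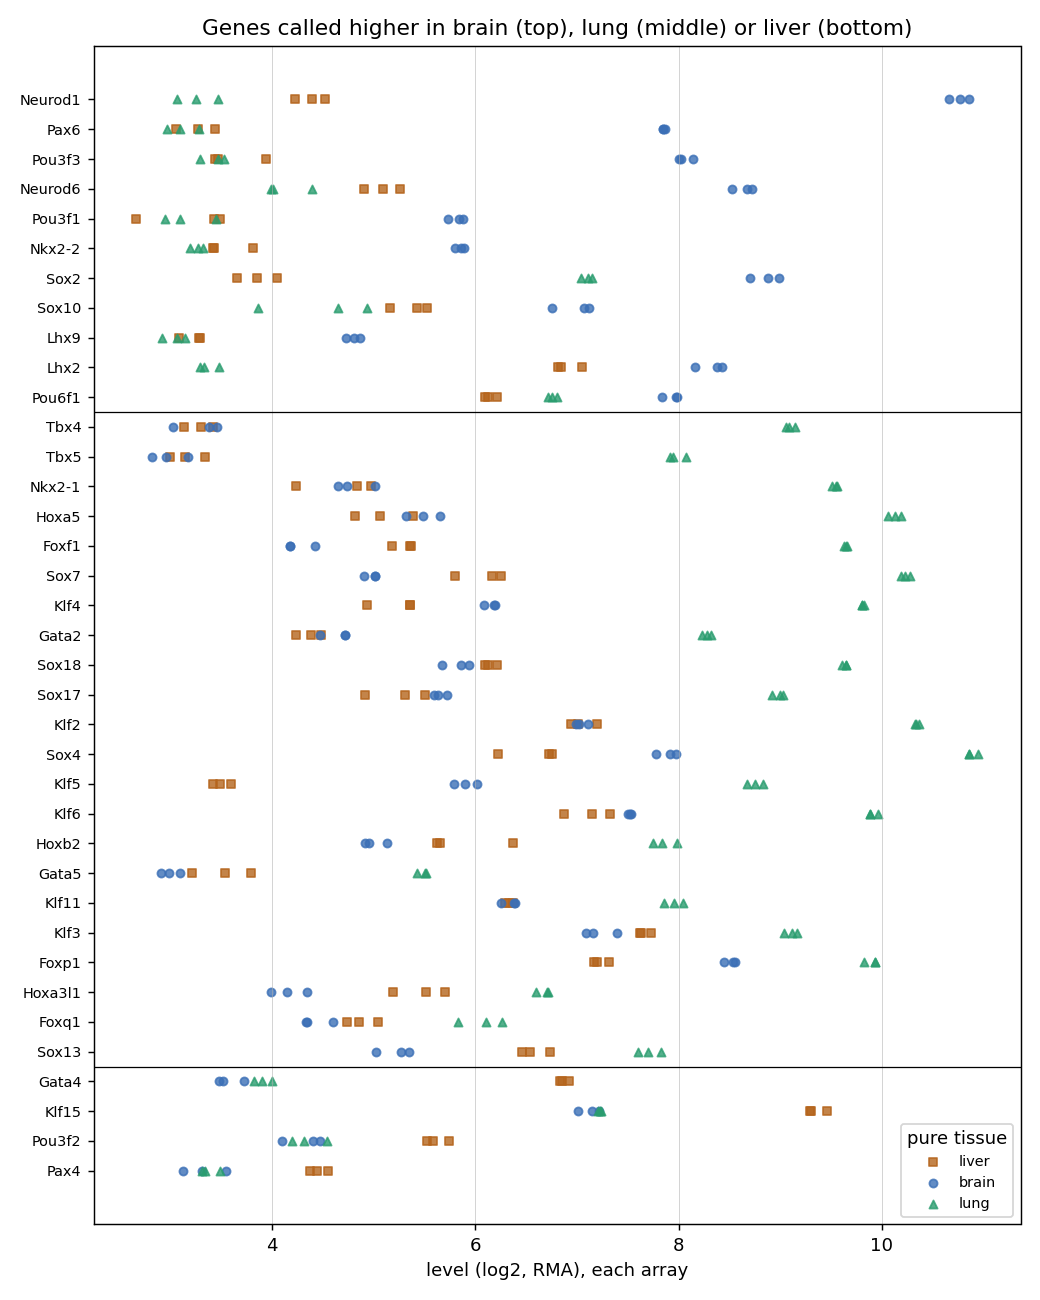
Level of each array (log2, horizontal axis) in pure liver (squares), brain (circles) and lung (triangles) for the 37 genes enriched in brain, lung or liver, ordered by the gap to the next tissue within each block. Neurod1 in brain, Tbx4 in lung and Gata4 in liver have the widest gap of their block, and Sox2 and Lhx2 show the second tissue in which they were high.

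Lung was led by T-box genes. Tbx4 and Tbx5 direct the outgrowth of lung and limb buds and remain on in lung mesenchyme. Tbx4 measured 9.14, 9.06 and 9.09 on the lung arrays, 3.13, 3.30 and 3.42 in liver and 3.38, 3.46 and 3.02 in brain, and the lung mean was 56.1-fold above brain (log2 difference 5.81, SE 0.13, adjusted p = 9.18e-30). Tbx5 measured 7.94, 8.07 and 7.91 in lung, 3.34, 3.14 and 2.99 in liver and 3.17, 2.82 and 2.95 in brain, 28.2-fold above liver (adjusted p = 1.59e-28). For both genes the liver and brain arrays overlapped and the lung arrays stood apart. In the GRCr8 gene table Tbx4 lies next to Tbx2 on chromosome 10 and Tbx5 next to Tbx3 on chromosome 12, with 0 coding genes between them in each pair. The neighbours showed another pattern. Tbx3 was high in lung and liver (7.22 ± 0.05 and 6.48 ± 0.07) and low in brain (3.80 ± 0.06), 10.7-fold below lung (adjusted p = 2.09e-26), and its 1.66-fold difference between lung and liver was under the size limit. Tbx2 was 2.68-fold higher in lung than in brain (6.38 ± 0.47 against 4.95 ± 0.04), with 1 lung array (5.83) inside the range of liver (5.57 to 5.95).

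Tbx5, Gata4 and Nkx2-5 are also core factors of heart muscle, and the lung RNA carried heart muscle transcripts. Of 6 heart muscle genes 4 were enriched in lung, with Myh6 39.4-fold and Myl7 29.9-fold over the next tissue, and Nppa and Actn2 were not. Their summed linear level was 1550 to 1590 on the lung arrays, 162 to 182 in liver and 197 to 219 in brain. Nkx2-5 measured 3.20, 3.25 and 3.09 in lung, below the liver arrays at 3.66, 3.56 and 3.33, and was dim in every tissue. Gata4 measured 4.0, 3.90 and 3.82 in lung. The part of heart muscle RNA in the Tbx5 level was not tested.

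Forkhead and Nkx factors of the lung were enriched as well. Foxf1, the forkhead factor of lung mesenchyme and capillaries, measured 9.65, 9.63 and 9.66 in lung, 5.36, 5.18 and 5.37 in liver and 4.17, 4.17 and 4.42 in brain, 20.3-fold above liver (adjusted p = 3.12e-33). Nkx2-1, which specifies lung and thyroid epithelium and ventral forebrain, measured 9.56, 9.55 and 9.51 in lung, 4.74, 4.65 and 5.01 in brain and 4.97, 4.23 and 4.83 in liver, 26.6-fold above brain (adjusted p = 3.63e-29). Brain and liver arrays overlapped for Nkx2-1. Foxp1, which acts in lung epithelium and in neurons, was 2.61-fold higher in lung than in brain (9.90 ± 0.06 against 8.51 ± 0.06), and 4 of its 5 probe sets were enriched in lung.

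Foxp2, its relative in lung epithelium and in neurons, was shared by brain and lung: 7.06 ± 0.16 and 6.58 ± 0.08 against 3.39 ± 0.25 in liver, 12.7-fold and 9.12-fold above liver, with brain 1.40-fold over lung. Foxq1 was enriched in lung on both of its probe sets (2.28-fold and 4.35-fold), and the first of these falls below the size limit when arrays are centred on their medians. Foxj1, the master factor of motile cilia, had a dim signal: 5.11, 5.12 and 5.28 in lung, 4.28, 4.25 and 4.37 in liver and 3.97, 4.18 and 4.01 in brain. The lung arrays lay above all others, and lung exceeded brain by 2.17-fold (adjusted p = 2.01e-13) and liver by 1.83-fold, under the size limit. Ciliated cell genes had a summed linear level of 391 to 431 in lung, 134 to 136 in brain and 85.8 to 92.2 in liver.

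Endothelial factors formed a large share of the lung set. Sox7, Sox17 and Sox18 make up the SoxF group, which governs the formation of blood vessels and lymphatics. Sox7 measured 10.19, 10.28 and 10.23 in lung, 5.80, 6.16 and 6.25 in liver and 5.01, 5.01 and 4.90 in brain, 17.9-fold above liver (adjusted p = 1.12e-29). Sox18 was 11.3-fold above liver (9.64 ± 0.02 against 6.14 ± 0.06) and Sox17 was 10.1-fold above brain (8.98 ± 0.06 against 5.64 ± 0.07). For all 3 the lung arrays lay apart from the other tissues. Klf2, a shear-stress factor of endothelium, was 9.82-fold above liver (10.35 ± 0.02 against 7.05 ± 0.14, with brain at 7.04 ± 0.06). Gata2, a factor of endothelium and blood progenitors, was 12.5-fold above brain (8.28 ± 0.04 against 4.64 ± 0.14). Of 10 measured genes in a list for endothelium 7 were enriched in lung, where 11.5% of all genes were. The median log2 difference of the 10 was -3.49 for brain minus lung and -3.62 for liver minus lung. Over all genes the medians were -0.09 and 0.03. The list was chosen with earlier results of these data known. Foxc1, Foxc2 and Foxo1 of this list were not enriched in lung. Foxc1 and Foxc2 were dim on every probe set, and 1 Foxc2 probe set was enriched in liver. The 4 measured endothelial marker genes, such as Pecam1 and Vwf, were all enriched in lung too, with a summed linear level of 7610 to 7880 in lung, 1360 to 1490 in liver and 422 to 441 in brain.

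Krüppel-like factors were the family with the most lung genes, 6 of 14. Klf4, which acts in epithelial barriers and endothelium, measured 9.80, 9.82 and 9.80 in lung, 6.18, 6.19 and 6.08 in brain and 5.36, 4.93 and 5.36 in liver, 12.6-fold above brain (adjusted p = 8.5e-30). Klf5, a factor of airway and alveolar epithelium, formed a graded series with 8.75 ± 0.08 in lung, 5.90 ± 0.11 in brain and 3.50 ± 0.08 in liver, and lung was 7.21-fold above brain. Klf6, Klf11 and Klf3 were 5.24-fold, 3.05-fold and 2.72-fold above the next tissue. Klf7, a factor of neuronal outgrowth, did not separate brain from lung (7.19 ± 0.08 and 7.34 ± 0.12, adjusted p = 0.153, 1.11-fold) but was 5.70-fold higher in brain than in liver. Klf1, the erythroid factor, and Gata1, its partner in red cell precursors, were dim in every tissue at 3.85 to 4.08 and 3.17 to 3.70, while the red cell genes had their highest summed level in lung (12700 to 12900, against 5070 to 5170 in liver and 2680 to 2750 in brain).

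Among the remaining Sox and Gata genes, Sox4, a progenitor factor of many tissues, measured 10.86, 10.95 and 10.86 in lung, 7.97, 7.78 and 7.91 in brain and 6.22, 6.75 and 6.72 in liver, 8.02-fold above brain, and 4 of its 7 probe sets were enriched in lung. Sox13 was 2.19-fold above liver in lung (7.71 ± 0.11 against 6.58 ± 0.14), a call that ended with arrays centred on their medians and with quantile normalization repeated. Gata5, a factor of endocardium and smooth muscle, had a dim signal, 3.90-fold higher in lung than in liver (5.47 ± 0.05 against 3.51 ± 0.29). Gata6, which acts in lung epithelium, gut and liver, was high in lung and liver (7.77, 7.82 and 7.83 against 7.25, 7.51 and 7.23) and low in brain (5.06, 4.42 and 4.15). Lung exceeded brain by 9.57-fold and liver exceeded brain by 6.88-fold, while lung and liver differed by 1.39-fold (adjusted p = 0.00154). Gata3, the T helper cell factor, depended on the probe set. The one with the higher mean gave 5.27 ± 0.14 in lung and 5.10 ± 0.15 in liver (adjusted p = 0.174), and the other was 7.15-fold higher in lung (6.38 ± 0.06 against 3.54 ± 0.29 in liver). The 4 measured T and B cell genes were all enriched in lung, with a summed linear level of 540 to 557 against 113 to 126 in liver and 68.6 to 75.2 in brain. Of 6 measured factors in a list for lymphoid and blood cells, Gata3 among them, 0 were enriched in lung (11.5% of all genes were). No pair was called for 5 of these 6.

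Hox genes pattern the body axis, and their paralog number follows their order along the axis, with low numbers toward the head. Hoxa5, required for lung morphogenesis, measured 10.06, 10.13 and 10.19 in lung, 5.32, 5.48 and 5.65 in brain and 5.38, 5.06 and 4.81 in liver, 25.0-fold above brain (adjusted p = 2.66e-30). Hoxb2 was 3.93-fold above liver in lung (7.86 ± 0.11 against 5.88 ± 0.43), and Hoxa3l1 2.30-fold (6.67 ± 0.06 against 5.47 ± 0.26), a gap that falls below the size limit with arrays centred on their medians (0.95, log2) or quantile normalization repeated (0.88). Hoxb4 and Hoxb6 were higher in lung than in brain by 3.18-fold and 2.42-fold but not called against liver. Of the 11 genes in paralog groups 1 to 6, 5 were higher in lung than in brain (20.8% of all genes were) and 5 were dim. The 12 genes in groups 7 to 13 were dim in every tissue and differed between lung and brain by less than 2-fold, and at such signals a difference can be missed. The antisense transcript Hoxa11-as was dim as well (3.72 in liver, 3.03 in brain, 3.01 in lung).

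**Figure D3:**
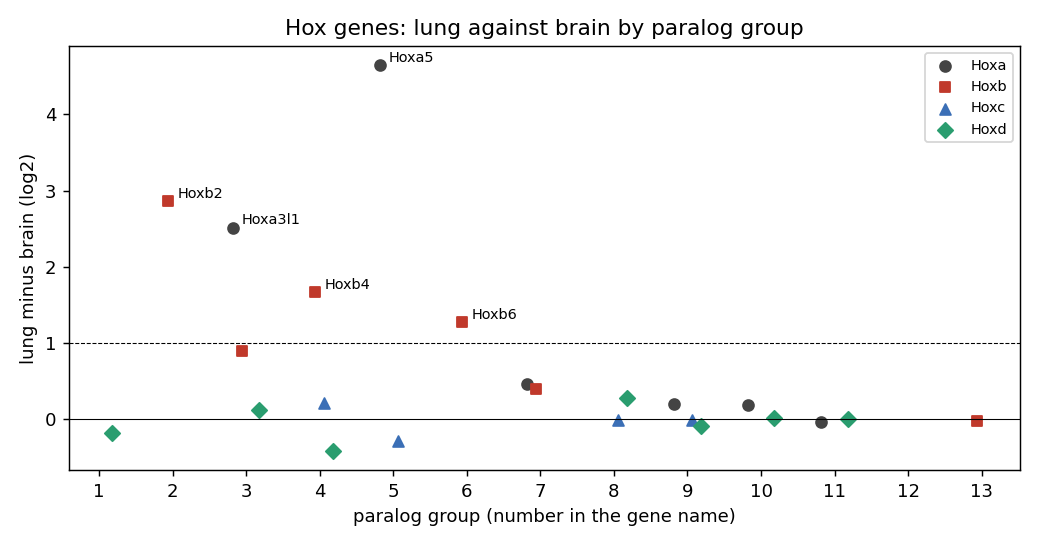
Difference between lung and brain (log2, vertical axis) for 23 Hox genes by paralog group (horizontal axis), with 1 point per gene coloured by cluster and the 2-fold limit dashed. Hoxa5, Hoxb2, Hoxa3l1, Hoxb4 and Hoxb6 lie above the limit, and groups 7 to 13 stay near 0.

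Liver had 4 enriched genes, of which 2 held up under each of the scalings tried. Gata4, a factor of hepatic endoderm, stellate and endothelial cells, measured 6.92, 6.85 and 6.83 in liver, 4.0, 3.90 and 3.82 in lung and 3.72, 3.51 and 3.48 in brain, 7.77-fold above lung (adjusted p = 1.4e-20). Its second probe set was dim. Klf15, a glucocorticoid-responsive regulator of amino acid and glucose metabolism, measured 9.30, 9.46 and 9.29 in liver, 7.21, 7.23 and 7.24 in lung and 7.15, 7.01 and 7.22 in brain, 4.37-fold above lung (adjusted p = 1e-27), and a second probe set gave 4.50-fold. In both genes the liver arrays lay apart from all others. The others were dim. Pou3f2, known from cortical neurons, was 2.41-fold above lung in liver (5.61 ± 0.12, with lung at 4.35 ± 0.18 and brain at 4.32 ± 0.20). Pax4, known from pancreatic beta cells, was 2.11-fold above lung (4.46 ± 0.09 against 3.38 ± 0.10). With the curve through the hybridisation controls both calls ended, at log2 differences of 0.33 and 0.14. Of the 9 liver-enriched probe sets 6 were dim, against 1 of 13 for brain and 4 of 40 for lung.

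Klf12 was called in liver and brain against lung (9.02 ± 0.02 and 8.03 ± 0.05 against 6.68 ± 0.07), with liver 1.98-fold above brain, just under the size limit. The Foxa factors, which open chromatin at liver and lung genes and lie outside the rule, are given for comparison. Foxa1 was 10.2-fold above lung in liver (7.88 ± 0.21 against 4.53 ± 0.05), Foxa3 was 6.96-fold above lung (6.72 ± 0.27 against 3.92 ± 0.16), and Foxa2 was close in lung and liver (8.88 ± 0.02 and 8.76 ± 0.02, adjusted p = 0.0211, 1.09-fold) and low in brain (3.65 ± 0.01). A list of 41 measured developmental factors of other families had 8 genes enriched in brain, 7 in lung and 7 in liver (11.7%, 11.5% and 9.61% of all genes were), led by Olig1, the oligodendrocyte factor, in brain (63.7-fold), Irx3 in lung (13.6-fold) and Hnf4a, the central hepatocyte factor, in liver (149-fold). Of 25 measured cofactors 3 were enriched in brain, 4 in lung and 0 in liver, and the brain count lay near the 11.7% of all genes. Among them were Lmo3, a LIM-only partner, at 22.7-fold in brain and Lmo2, its relative in blood and endothelium, at 4.70-fold in lung.

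Several genes had probe sets that did not behave alike. Of 38 genes with more than 1 probe set, 0 were enriched in different tissues, 4 had every probe set enriched in the same tissue, 16 had some enriched and some not, and 18 had none. The 4 were Foxf1, Foxq1, Klf3 and Klf6, each in lung. Sox6, a factor of cartilage and red cells, had equal levels in liver and brain on its brighter probe set (6.70 in both, with lung at 5.09) and a dim second one called in liver (4.44, with brain at 3.39 and lung at 2.83).

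In the mixtures each of the 62 enriched probe sets had a higher mean at the highest share of its tissue than at the lowest. For each of them the mixture with the lowest share of its tissue was set beside that with the highest, which is 5% against 70% for liver and brain and 1% against 70% for lung. The 3 arrays of the high mixture lay above the 3 arrays of the low mixture without overlap for 40 of 40 lung probe sets, 13 of 13 brain probe sets and 8 of 9 liver probe sets. The exception was the liver-enriched probe set of Foxn3, which was dim. The median difference was 2.12 (log2) for lung, 2.05 for brain and 0.71 for liver. The same count was not made over all enriched probe sets. The mixtures hold cRNA of the pure tissues in which these probe sets were picked, so the counts do not single out these families.

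Single factors rose with the share of their tissue, at levels above or below the share-weighted sum. Neurod1 rose from 7.41 ± 0.07 in 70/5/25 to 10.60 ± 0.01 in 25/70/5, where the pure levels weighted by share and summed gave 6.70 and 10.25. At 5% of brain its level already stood well above pure liver (4.38) and pure lung (3.26). Nkx2-1 rose from 5.23 ± 0.01 in 65/34/1 to 9.15 ± 0.01 in 5/25/70, where the sums were 5.07 and 9.05. Tbx4 rose from 3.52 ± 0.37 to 8.35 ± 0.07 over the same mixtures (sums 3.92 and 8.59), and Tbx5 from 3.02 ± 0.06 to 7.09 ± 0.06 (sums 3.46 and 7.48). At 1% of lung Tbx4 and Tbx5 lay within the range of their pure liver and brain arrays or close to it. Gata4 rose from 3.68 ± 0.19 in 5/25/70 to 5.80 ± 0.18 in 70/5/25 (sums 4.27 and 6.43), and Klf15 from 7.30 ± 0.02 to 8.68 ± 0.08 (sums 7.43 and 8.97).

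**Figure D4:**
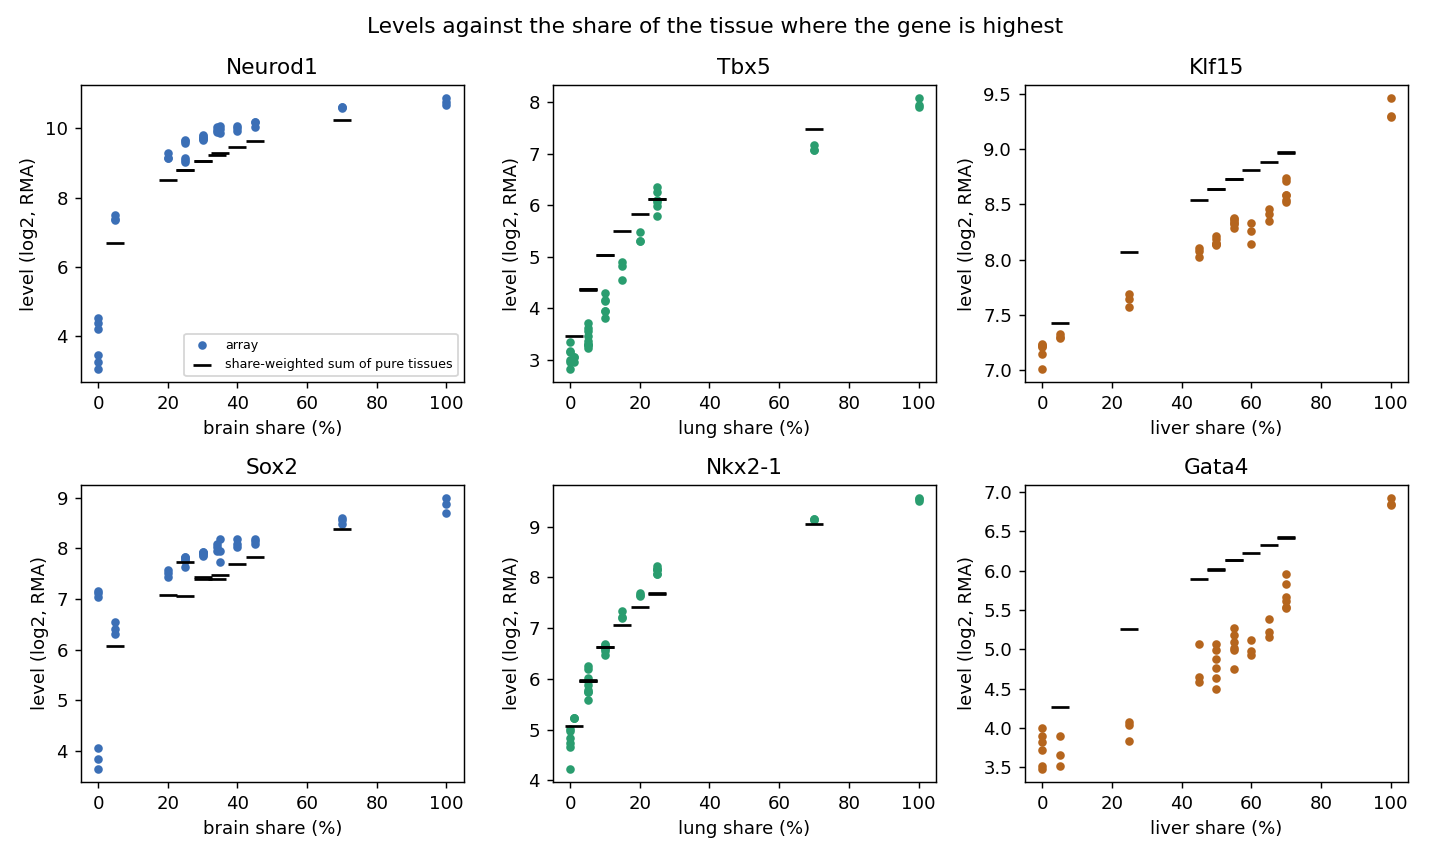
Level of each array (log2, vertical axis) against the labelled share of the tissue in which the gene is highest (horizontal axis, percent), for Neurod1 and Sox2 with brain, Tbx5 and Nkx2-1 with lung, and Klf15 and Gata4 with liver. Points are arrays, those at 0% and 100% being pure tissues, and dashes mark the share-weighted sum for each mixture. Neurod1 and most Sox2 points lie above the dashes, and Gata4 and Klf15 below them.

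A regression on the 11 mixture means alone, with no pure array, called the same direction for 71 of the 71 probe sets that differed between brain and lung (98.5% of all such probe sets), for 63 of 67 between liver and lung (92.5% of all) and for 33 of 43 between liver and brain (97.7% of all). None was called in the opposite direction by limma, and those left were not called at an adjusted p below 0.05. All 40 lung and all 13 brain probe sets were called higher than both other tissues from the mixtures, and 5 of the 9 liver probe sets. This count over both contrasts was not made for all enriched probe sets, so it does not mark these families out. The 4 liver probe sets that were missed, those of Foxc2, Foxn3, Pax4 and Sox6, were dim. The other liver against brain calls that were missed comprised the second Foxc2 probe set, and 5 probe sets of Foxp1, Klf5 and Sox4, genes whose highest level was in lung.

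Departures from linear mixing were mostly small and mostly downward. The departure is the mean over the 11 mixtures of the observed level minus the level of the share-weighted sum, called at an adjusted p below 0.05 and at least 1.5-fold. Its median was -0.24 (log2) over the 193 probe sets and -0.22 over all. Called below the sum were 7 probe sets, 3.63% of the 193, against 4.84% of all, and called above was 1, 0.518%, against 0.325% of all. By tissue, the median was -0.57 for the liver-enriched probe sets, 0.07 for the brain-enriched and -0.21 for the lung-enriched, and the same order held over all probe sets enriched in these tissues (-0.52, 0.13 and -0.24).

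Gata4 had the strongest departure of the 193 probe sets, with -1.03 (SE 0.08, adjusted p = 1.93e-12), and was below the sum in 11 of 11 mixtures. Its level in 25/70/5 was 3.98 where the sum was 5.26, and in 65/34/1 it was 5.25 where the sum was 6.32. Tbx3 followed with -0.73 (SE 0.05) on its brightest probe set and -0.59 on another, each below the sum in 11 mixtures. The remaining calls below the sum were Sox6 (-0.70), Pax4 (-0.67) and Foxc2 (-0.59), each on a dim probe set, and Tbx5 (-0.62), which was below the sum in 10 of 11 mixtures. These calls depended on the processing. With the curve through the hybridisation controls the departures of Gata4 and Tbx3 were -0.56 and -0.50, under the limit. With a share-weighted mean of log2 levels as the reference they were -0.39 and -0.28, and that of Tbx5 was 0.68.

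Neurod1 was the call above the sum, at 0.61 (SE 0.05, adjusted p = 1.82e-11), and lay above it in all 11 mixtures. This value stood close to the limit of 0.585, and it was no longer called without brain replicate 1 (0.56), with centring (0.57), with quantile normalization repeated (0.57) or with the curve (0.56). Pou3f3 (0.44), Sox2 (0.40), Foxp2 (0.27) and Pax6 (0.24) came next, below the size limit, and Pou3f3 and Sox2 also lay above the sum in 11 of 11 mixtures. Relative to the median departure of all probe sets Pou3f3 (0.66) and Sox2 (0.62) passed the limit, and against a share-weighted mean of log2 levels all 4 did (1.83, 1.77, 1.10 and 1.72). Apart from Foxp2, which was high in brain and lung, these were brain-enriched genes. Nkx2-1, Hoxa5, Klf4 and Klf5 in lung had departures of 0.12, 0.04, 0.06 and 0.05, above the median of -0.21 of the 40 lung-enriched probe sets.

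**Figure D5:**
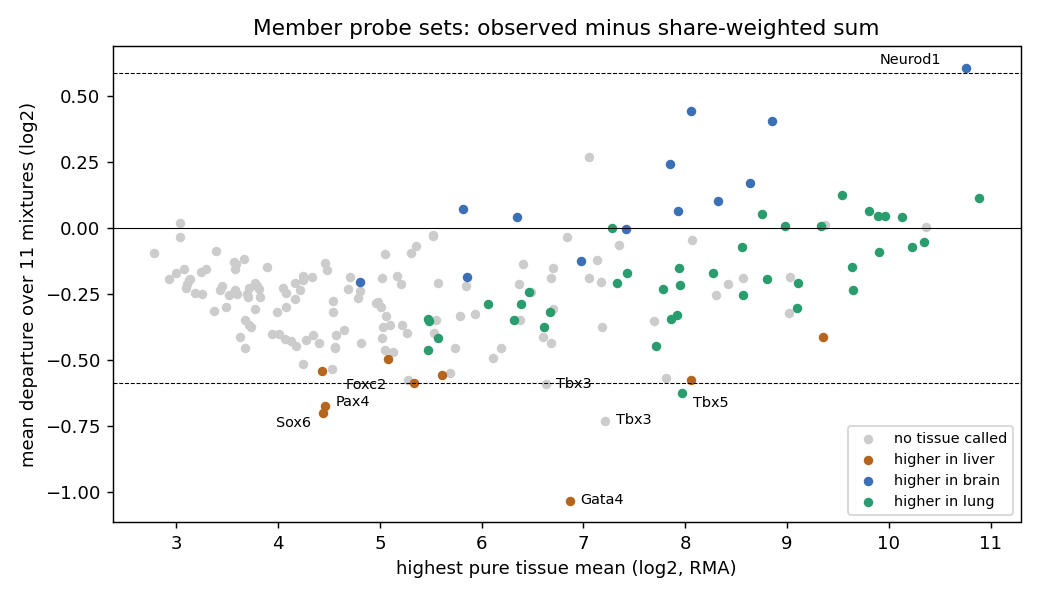
Mean departure from the share-weighted sum over 11 mixtures (log2, vertical axis) against the highest pure tissue mean (log2, horizontal axis), 1 point per probe set for all 193, coloured by the tissue in which it was enriched and named where called, with the 1.5-fold limits dashed. Among enriched points the median is highest for brain and lowest for liver, with Neurod1 at 0.61 and Gata4 at -1.03. Tbx3, enriched in no tissue, and lung-enriched Tbx5 also lie below the lower limit.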

How the data were processed

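Per the series' design text and the submitters' processing notes, the authors used RMA (version not given in the sources here), and each deposited value is a probe set's log2 level. RMA forces similar distributions on all arrays, so tissues may be scaled unevenly. Of the table, 57 control probe sets were left out and 31042 were tested. The platform annotation gave 20826 probe sets 1 symbol and 436 several, and did not list 9780. Of the 121 member genes 120 were matched by identifier in the GRCr8 gene table, with 0 symbols changed.

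A single limma model (version 3.58.1 under R 4.3.3) fitted 14 group means to the 42 arrays, with Benjamini-Hochberg adjustment across the 31042 probe sets. The error of a departure came from the same fit by the delta method. The mixtures-only regression used 11 linear-scale means, a slope per tissue and limma's intensity trend. The brightest probe set of a gene (mean over 42 arrays) stood for it. Summed levels of markers add linear values of 1 probe set per gene.

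The members and lists were chosen with earlier results of these data known. Named were up to 3 enriched genes per family and tissue, the 5 largest departures each way, a list of well-known factors whatever their values, and, chosen after their values were seen, the other enriched genes and those named to complete a count. The steps were tested on simulated arrays. Alternatives covered the arrays fitted, the variance model, scaling, background, dim probe sets, 1 probe set per gene, the fold limit, the scale of mixing, the unit of the regression and each array left out. The number of arrays limits the precision.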

Additional observations from a re-analysis of the deposited data

How the results depend on the processing

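Counts are of probe sets unless stated. Liver enrichment moved from 9 to 19 with arrays centred on their medians, 32 with the 5th percentile subtracted, 3 with the curve through the hybridisation controls, 3 among probe sets over the median, 4 with 1 probe set per gene and 65 with no fold limit. Liver against brain calls moved from 43 to 96 with the 5th percentile subtracted, 27 with 1 probe set per gene and 159 with no fold limit. Liver against lung calls moved from 67 to 39 with 1 probe set per gene and 158 with no fold limit, and brain against lung calls from 71 to 126 with no fold limit. Brain enrichment moved from 13 to 27 with no fold limit, and lung enrichment from 40 to 62 with no fold limit and 22 with 1 probe set per gene. Departure calls moved from 8 to 37 with median centring, 17 with quantile normalization repeated, 1 with the curve, 50 with the 5th percentile subtracted, 5 among probe sets over the median, 5 with 1 probe set per gene, 162 with no fold limit, 21 with a share-weighted mean of log2 levels and 4 relative to the median departure. Calls shared by mixtures and pure arrays, 167 in all, became 107 with 1 probe set per gene and 305 with no fold limit. Fewer probe sets tested or a dropped limit explains the counts by construction for 1 probe set per gene, probe sets over the median and no fold limit, and the cause was not tested for the others.

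Centring moved the median of all probe sets from 0.18 to 0.42 for liver minus brain and from 0.12 to 0.37 for liver minus lung, and the curve moved them to -0.66 and -0.80. By gene, the 11 brain genes were shared by the deposited values, centring, quantile normalization and the curve, the 22 lung genes by 22, 19, 20 and 22, and the 4 liver genes by 4, 4, 4 and 2. The gap to the next tissue reversed for Gata3 with centring (-0.082), for Klf1 with quantile normalization (-0.14), the curve (-0.80) and the 5th percentile subtracted (-0.12), and for Gata1 (-0.64), Nkx2-5 (-0.60) and Pou1f1 (-0.45) with the curve, and none of these was called. Foxj1 passed the size limit over liver with quantile normalization (1.02), the curve (1.19) and the 5th percentile subtracted (1.42), and Gata3 (1.09) and Gata6 (1.42) passed it with the curve. The Tbx5 departure reversed to 0.68 on the log2 mixing scale. The Neurod1 departure fell under the limit with centring (0.57), quantile normalization (0.57) and the curve (0.56).

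Leaving out each array in turn gave 42 to 45 liver against brain, 65 to 68 liver against lung and 70 to 71 brain against lung calls, 8 to 10 enriched in liver, 13 to 13 in brain and 40 to 40 in lung, 6 to 12 departures and 164 to 169 calls shared with the mixtures. Without liver replicate 2, 11 departures lay below the sum in place of 7. No paired analysis was possible because the labels give no replicate numbers and the arrays of a group are technical. Dim probe sets, 56% of the members, limit what could be called.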
